A study of Mus musculus with 6 samples.

Results

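The 35 genes described here encode the machinery of glucose breakdown and part of the transcriptional response to low oxygen: glucose transporters, glycolytic enzymes and their regulators, lactate and monocarboxylate handling, oxygen sensing and the pentose phosphate pathway. They were taken by name from a list whose rule uses no measured value, although the list was drawn up with earlier results of these data known, and all 35 were found among the 49585 gene IDs of the count table and passed the filter on low counts. RNA-seq was done on acute myeloid leukemia cells of mice. The disease is driven by the KMT2A-MLLT3 fusion, in which a histone methyltransferase is joined to MLLT3, a protein that binds DOT1L, itself a methyltransferase of histone H3. Marrow of sick mice was transduced with DOT1L, cells with low or high expression were sorted, and RNA was taken 3 days later from cultures grown with stem cell factor, interleukin 3 and interleukin 6. These 6 libraries fell into 3 groups of 2. NT is labelled only as leukemia cells, DOT1L Low and DOT1L High as the same cells with low and with high levels of DOT1L overexpressed, and every group carries the KMT2A-MLLT3 fusion. Each group held 1 library with the title K3117 and 1 with K3174, read here as 2 source leukemias. The labels do not expand NT and do not say whether NT cells were transduced or sorted. Nor do they give the species or promoter of the DOT1L construct, or whether the K numbers are separate mice. The p-values below therefore measure only the spread left among these 6 libraries once label and K number are fitted.

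As background, glucose enters through the GLUT transporters, is phosphorylated by hexokinases and is split and oxidized to pyruvate along the glycolytic chain, and lactate dehydrogenase turns pyruvate into lactate for export. The pentose phosphate pathway branches off after the hexokinase step, makes NADPH and ribose, and is known in granulocytes for feeding the oxidative burst. When oxygen is low, the prolyl hydroxylases encoded by the Egln genes stop marking HIF1A for destruction, and HIF then binds short sequences near many glycolytic genes and near Egln3 itself.

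Promoter sequences are shown first for 3 genes that stand for the patterns below: Egln3, the gene of the list that fell with DOT1L High, Gpi1, a glycolytic enzyme that rose, and Pgk1, a textbook HIF target whose level differed little. Each line gives the 250 bases before the RefSeq start (build GRCm38.p6), 5′ to 3′ on the gene's strand, at chr12:54203875-54204124 (minus strand), chr7:34230337-34230586 (minus strand) and chrX:106186850-106187099 (plus strand). Capitals mark the HIF core motif, ACGTG or GCGTG on either strand. In the GENCODE annotation the Egln3 and Pgk1 stretches overlap no gene and the Gpi1 stretch overlaps an exon of Gm12762.
Egln3: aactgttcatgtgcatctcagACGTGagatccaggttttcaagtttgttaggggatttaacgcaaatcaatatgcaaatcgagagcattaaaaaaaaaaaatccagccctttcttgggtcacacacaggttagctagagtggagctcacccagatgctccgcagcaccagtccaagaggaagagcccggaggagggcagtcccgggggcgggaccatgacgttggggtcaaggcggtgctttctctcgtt
Gpi1: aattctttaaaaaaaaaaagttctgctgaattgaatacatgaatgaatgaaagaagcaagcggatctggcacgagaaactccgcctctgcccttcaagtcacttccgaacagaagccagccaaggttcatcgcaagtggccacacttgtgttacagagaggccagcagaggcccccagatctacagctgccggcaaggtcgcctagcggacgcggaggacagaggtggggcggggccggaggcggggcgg
Pgk1: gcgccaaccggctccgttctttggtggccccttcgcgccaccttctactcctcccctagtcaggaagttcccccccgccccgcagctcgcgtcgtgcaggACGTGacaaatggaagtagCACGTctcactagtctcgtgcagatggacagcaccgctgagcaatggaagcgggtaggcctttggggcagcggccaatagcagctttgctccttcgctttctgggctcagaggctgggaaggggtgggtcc
The Egln3 stretch held 1 match, 229 to 225 bases before the start, the Pgk1 stretch 2 and the Gpi1 stretch none. No match says only that these letters are not in this window.

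Among the genes that rose, 5 had the HIF core in 25-base sites that overlap an exon of the gene itself in the GENCODE annotation, which places some starts further upstream than RefSeq. They are shown because they belong to genes that rose with DOT1L High, at chr9:108991775-108991799 (plus), chr2:11553975-11553999 (minus), chr4:149166731-149166755 (minus), chr14:30549053-30549077 (plus) and chrX:74428909-74428933 (minus).
Pfkfb4: gacggatgggGCGTGcttagtccaa
Pfkfb3: ccgcgccgtgACGTGccaagctgtg
Pgd: agacccaataGCGTGgggcatcggc
Tkt: taaatgcgggGCGTGgccagaggcc
G6pdx: agtcaaagcaCACGCcctcttgcgt
G6pdx also held a match to the antioxidant element TGACNNNGC, in capitals here on the opposite strand, 57 to 49 bases before the start at chrX:74428919-74428947.
G6pdx element: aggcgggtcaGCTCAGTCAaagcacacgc
RefSeq promoters were matched for 33 of the 35 genes (not Bnip3l and Slc2a3), and 31 of the 33 held the HIF core in at least 1 promoter, against 41.5% of 27025 genes. Counted by promoter it was 39 of 48, against 38.6% of 32851. The 2 genes without a match were Gpi1 and Tpi1. The median GC content of these stretches was 60.4% for the list and 52.4% for all promoters, and the motif itself holds CG. The list holds known HIF targets by choice, and the genes compared include ones not expressed in these cells. Promoters per gene also differ, with 48 for 33 genes of the list and 32851 for 27025 genes. No conclusion is therefore drawn from the difference in shares. The E-box CACGTG, which contains ACGTG, was in 6 of 48 promoters of the list (Bnip3, Hif1a, Ldha, Pfkfb3, Pfkm and Slc16a1) against 6.02% of all. TGACNNNGC was in 4 of 48 (Aldoa, G6pdx, Hk1 and Slc16a1) against 10.2% of all. These matches describe sequence and are not binding sites measured here.

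Libraries held between 22908445 and 33265848 counts. Dot1l, counted on the mouse gene, was at 128, 184 and 150 CPM (counts scaled to library size, with TMM factors) in NT, Low and High of K3117, and at 158, 152 and 136 in K3174. Its log2 difference of High from NT was 0.00 (95% interval of the fold 0.792 to 1.26). Whether reads of the construct are counted there is not given in the sources used here, so the counts do not check the labels, and every direction below follows the labels. Markers of maturation moved with the labels. The 12 late neutrophil genes (Ltf, Camp, S100a8 and others) summed to between 25.9 and 158 CPM of the library total in NT, 116 and 1344 in DOT1L Low and 1589 and 7299 in DOT1L High, with 11 of 12 higher in High than in NT. Primary granule genes (6 of 7 higher) summed to between 1410 and 2833, 3551 and 6228, and 4729 and 6379 in the same groups. Monocyte and macrophage genes (4 higher and 3 lower of 8) summed to between 1038 and 1640, 1220.3 and 1512, and 2145 and 3037. Mast cell and basophil genes (5 higher of 6 tested in High against NT) summed to between 125 and 200 in NT, 188 and 280.1 in Low, and 460 and 830 in High. In Low against NT only 1 of these 6, Hdc, had a positive log2 difference (1.86). The median over the 6 was -0.15. Erythroid genes (0 of 4 tested changed in High against NT) summed to between 2.40 and 3.52, 1.41 and 2.26, and 4.95 and 5.71. In High against Low, 2 of these 4 were higher and 0 lower. The T, NK and B cell genes (1 of 2 tested higher) summed to between 8.59 and 22.3, 25 and 45, and 41.8 and 54.3, with Cd3e, Cd8a and Ms4a1 at 0 in every library. Stromal and endothelial genes (0 of 3 tested changed) summed to between 168 and 220, 141 and 232, and 127 and 188, with Col1a2 at 0 in every library. The part of cell composition in the results below was not tested, and in bulk RNA fewer cells of a type and less RNA per cell cannot be told apart.

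With DOT1L High, the list did not move one way: the pentose phosphate genes, the PFKFB regulators, Gpi1, Slc2a3 and Bnip3l rose, Egln3 fell, and the remaining glycolytic enzymes did not pass the test. Against NT, 8 of 35 genes (22.9%) were higher at an adjusted p under 0.05 and 1 (2.86%) was lower, while 26 did not pass. Over all 15812 genes tested, 10.0% were higher, 7.32% lower and 17.3% either. The median log2 fold change was -0.01 for the list and -0.01 for all genes. Upper quartile scaling moved the median of all genes to -0.11 and the share of higher genes among all calls from 57.8% to 43.9%, and fitting without the leukemias moved that share to 71.8%. Without the leukemia as a replicate block, 2 of the 9 genes passed (Pfkfb3 and Pfkfb4). Leaving out the NT library of K3117 raised the calls of lower in the list and also over all genes. Calls added in the list were Pfkl, Pfkm, Pfkp, Tpi1, Gapdh, Pgam1, Ldha and Slc16a1. Leaving out the High library of K3117 added Pfkm, with fewer calls of lower over all genes. Each of these fits leaves 1 library in a group.

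**Figure D1:**
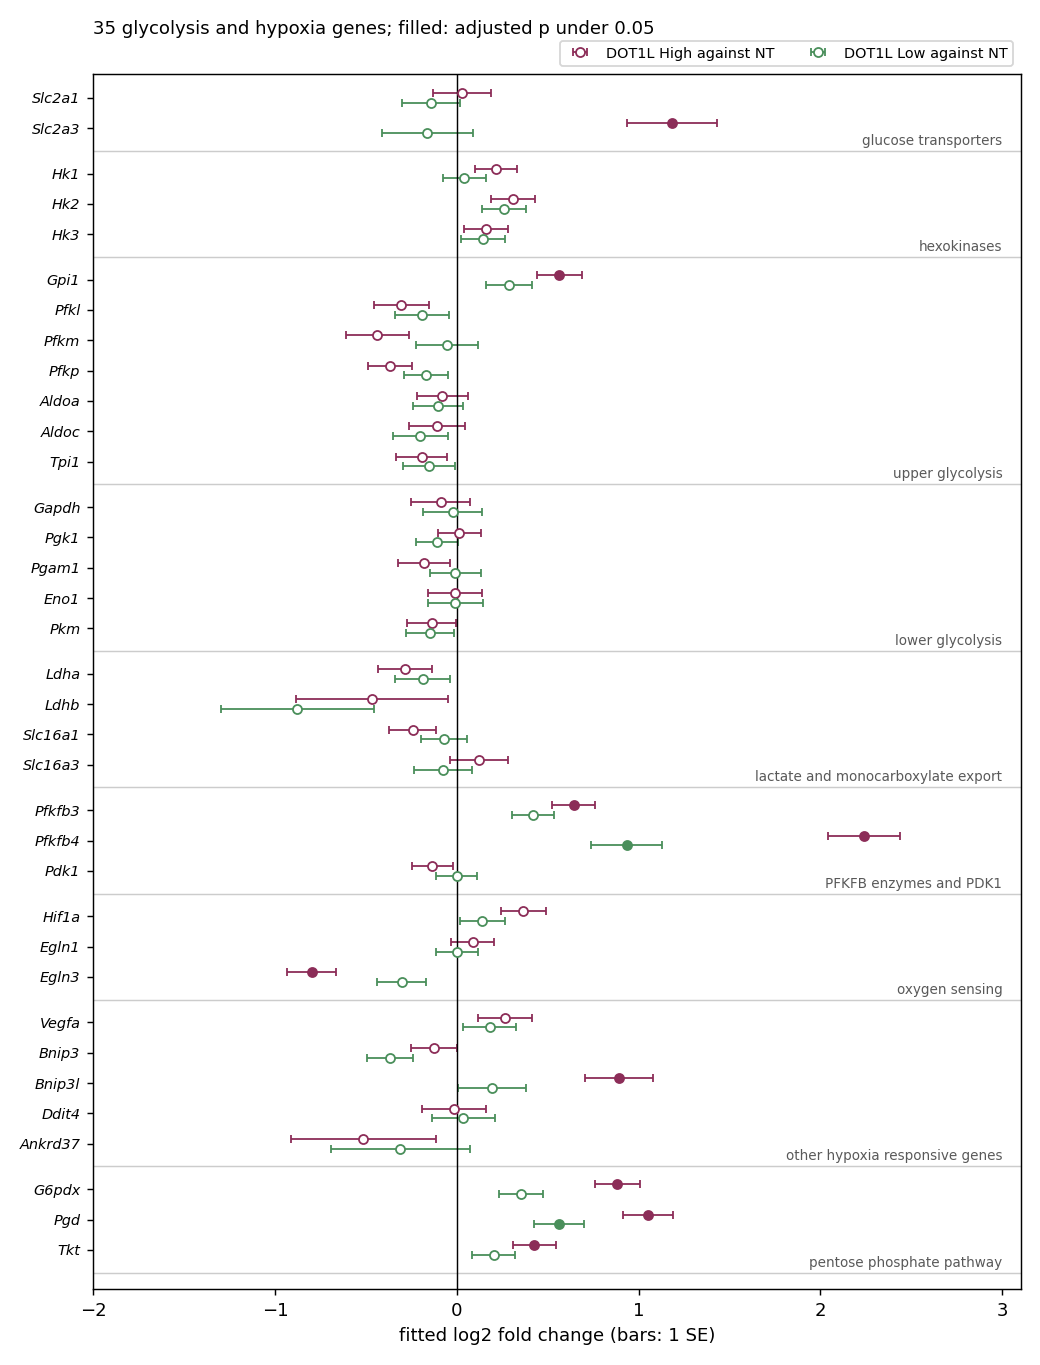
Fitted log2 fold changes of the 35 genes, grouped by role, for DOT1L High and DOT1L Low against NT, which share the NT libraries. Bars are 1 SE of the fit over 6 libraries and filled points have an adjusted p under 0.05: 9 for High and 2 for Low. The largest change is Pfkfb4, at 2.24 for High.

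Of the glucose transporters, Slc2a3 rose and Slc2a1 did not pass. Slc2a3, the high-affinity transporter GLUT3, was at 9.29 CPM (NT), 9.45 (Low) and 15.1 (High) in K3117, and at 16.1, 12.5 and 47.6 in K3174. The High library of each leukemia was the highest of its own 3, but the groups overlapped, since High in K3117 lay below NT in K3174. The fitted difference from NT was 1.19 ± 0.25 (log2, SE), a 2.27-fold rise (95% interval 1.56 to 3.31, adjusted p = 0.0059). With the High library of K3174 left out the adjusted p was 0.18, and without the block it was 0.26. Slc2a1, the widely expressed transporter GLUT1, did not pass (log2 difference 0.03, adjusted p = 0.94), with 99.6, 117 and 124 CPM in K3117 and 113, 79.6 and 96.0 in K3174. It was thus highest in High of 1 leukemia and in NT of the other.

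None of the 3 hexokinases, which trap glucose in the cell, passed the test with DOT1L High. Their log2 differences were 0.22 for Hk1, 0.31 for Hk2 and 0.16 for Hk3, with adjusted p of 0.26, 0.11 and 0.44. For Hk2, the hexokinase known for its induction in proliferating cells, both High libraries (170.0 and 157 CPM) were above both NT libraries (123 and 141), and the 95% interval of the fold was 1.03 to 1.49.

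From glucose phosphate to pyruvate the chain has 12 enzymes on the list, Gpi1 to Pkm. With DOT1L High, 1 of them rose (8.33%, against 10.0% of all genes) and none fell (against 7.32%), so the share that rose was near the background. Gpi1, the isomerase at the fork between glycolysis and the pentose phosphate pathway, was at 815 CPM (NT), 1106 (Low) and 1265 (High) in K3117, and at 981, 1078 and 1385 in K3174. Every High library was above every NT library, and the fitted rise was 1.48-fold (log2 0.56 ± 0.13 SE, 95% interval 1.22 to 1.79, adjusted p = 0.0088). Without the block its adjusted p was 0.074. The other 11 enzymes had log2 differences between -0.44 (Pfkm) and 0.01 (Pgk1). The median over the 12 was -0.12, against -0.01 over all genes.

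The 3 phosphofructokinase genes, which commit sugar to glycolysis, were below NT in both High libraries but did not pass. For Pfkp the values were 267, 266 and 224 CPM in K3117 (NT, Low, High) and 236, 188 and 170 in K3174, a log2 difference of -0.37 (adjusted p = 0.061). Pfkp passed as lower under 4 alternatives of scaling or filtering, and Pfkm under 2 of them. Exons of Pfkp share 748 bases with Pitrm1 on the other strand, whose counts were 58.8% to 78.3% of those of Pfkp, and without known use of strand the 2 genes cannot be told apart there. Pfkm likewise shares 18 exon bases with Senp1, whose counts were above its own in every library. Log2 differences were -0.30 for Pfkl (adjusted p = 0.21) and -0.44 for Pfkm (0.11).

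Gapdh and Eno1, abundant enzymes of the lower chain, lay on opposite sides of NT in the leukemias, a difference that was not tested. Gapdh, which makes the NADH of glycolysis, was at 2229 CPM (NT), 2738 (Low) and 2627 (High) in K3117, and at 2656, 2129 and 2023 in K3174. Eno1, the enolase, was at 2311, 2789 and 2762 CPM in K3117 and at 2564, 2126 and 2141 in K3174. Both overexpressing libraries were above NT in K3117 and below NT in K3174, and the fitted log2 differences of High from NT were -0.09 for Gapdh (95% interval of the fold 0.736 to 1.20) and -0.01 for Eno1 (0.789 to 1.25). Summed over the 12 enzymes, CPM was 12172, 13766 and 13597 in K3117 and 12744, 10625 and 10965 in K3174. The High sum was therefore 1.12 times NT in one leukemia and 0.860 times NT in the other.

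For lactate and monocarboxylate handling, none of 4 genes passed with DOT1L High. Ldha, the muscle-type lactate dehydrogenase, was at 1909, 2030 and 1871 CPM in K3117 (NT, Low, High) and at 1924, 1407 and 1334.5 in K3174 (log2 difference -0.29, adjusted p = 0.24). Both High libraries were below both NT libraries, by little in K3117. Ldhb, the heart-type subunit, was at most 1.27 CPM. The exporters Slc16a1 (MCT1) and Slc16a3 (MCT4) had log2 differences of -0.24 and 0.12, with adjusted p of 0.25 and 0.69.

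The regulators of glycolytic flux included the largest change of the list. Pfkfb4, a bifunctional enzyme that makes and removes the allosteric activator of phosphofructokinase, was at 8.72 CPM (NT), 13.0 (Low) and 32.1 (High) in K3117, and at 9.50, 23.7 and 58.7 in K3174. The level rose from NT to Low to High in both leukemias, with no overlap between High and NT. The High difference was 4.72-fold (log2 2.24 ± 0.20 SE, 95% interval 3.50 to 6.36, adjusted p = 1.8e-05) and passed under every alternative run. Pfkfb3, the isoform with the strongest kinase side, was at 65.8, 88.4 and 107 CPM in K3117 and at 75.1, 99.6 and 112 in K3174. Its rise was 1.56-fold (log2 0.64 ± 0.12 SE, adjusted p = 0.0025), again in the order NT, Low, High in both leukemias and under every alternative. Pdk1, which shuts pyruvate out of the mitochondrial oxidation route, did not pass (log2 difference -0.13, adjusted p = 0.505).

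**Figure D2:**
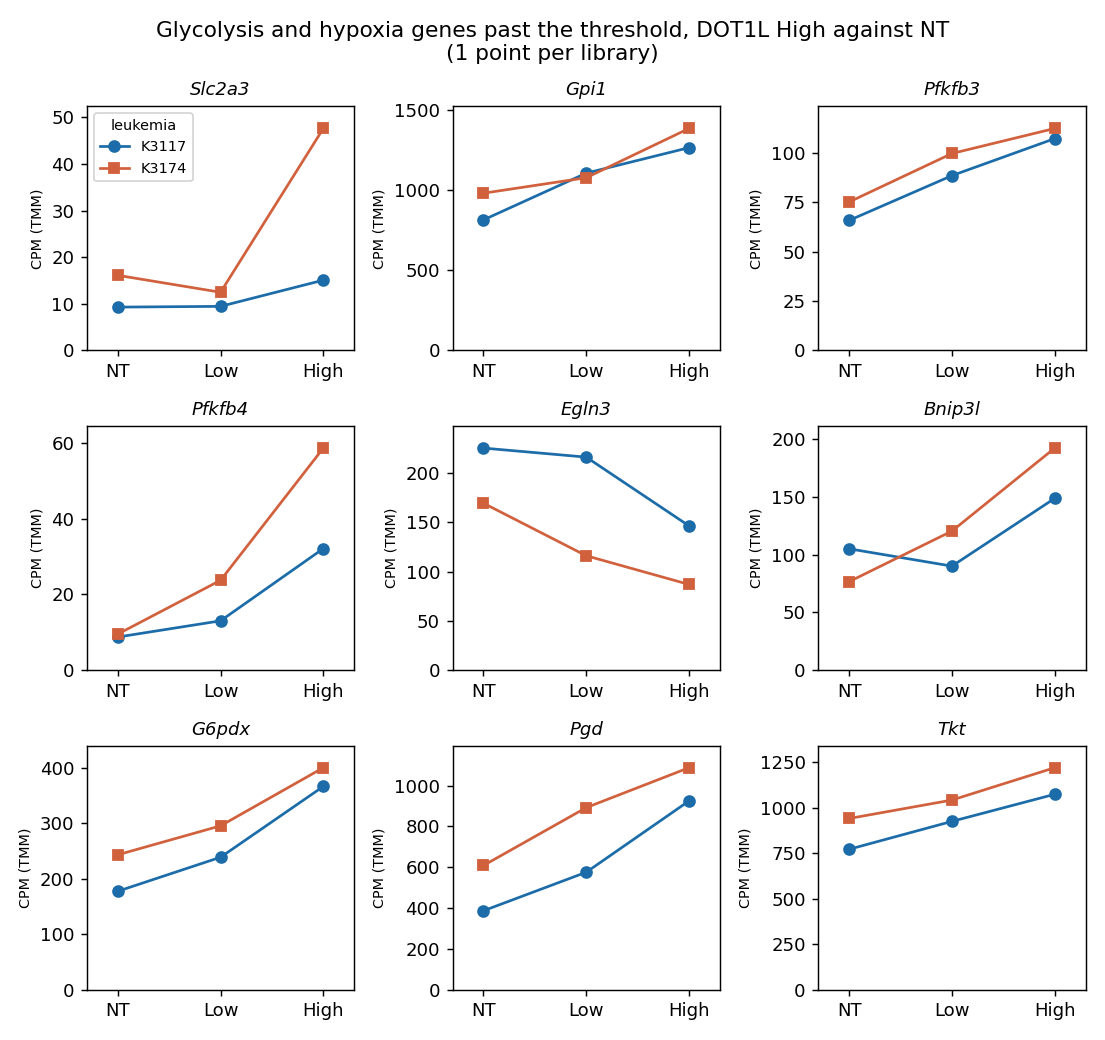
CPM in each library for the 9 genes past the threshold in DOT1L High against NT, with 1 line per leukemia and axes from 0. Pfkfb4 rises from 8.72 to 32.1 CPM in K3117 and from 9.50 to 58.7 in K3174, Egln3 falls in both, and Slc2a3 is dominated by the K3174 High library at 47.6.

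Of the 3 oxygen-sensing genes, Egln3 fell. It encodes the prolyl hydroxylase PHD3 and was at 226 CPM (NT), 216 (Low) and 146 (High) in K3117, and at 169, 116 and 87.0 in K3174. Both High libraries were below both NT libraries, and the fitted level was 1.74-fold lower in High (log2 -0.80 ± 0.13 SE, adjusted p = 0.0015, or 0.31 without the block). Hif1a, the oxygen-labile subunit of HIF, was at 177, 175 and 231 CPM in K3117 and at 148, 181 and 188 in K3174, a log2 difference of 0.37 that did not pass (adjusted p = 0.065). Hif1a passed as higher with no filter beyond 1 count. Egln1, the main hydroxylase acting on HIF1A, had a log2 difference of 0.09 (adjusted p = 0.69).

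Among 5 other hypoxia-responsive genes, Bnip3l rose. Bnip3l (NIX), a receptor for the removal of mitochondria that also acts in maturing red cells, was at 105, 90.1 and 149 CPM in K3117 (NT, Low, High) and at 76.7, 121 and 193 in K3174. High was above NT in both leukemias without overlap, while Low lay on opposite sides of NT. The rise was 1.85-fold (log2 0.89 ± 0.19 SE, 95% interval 1.40 to 2.46, adjusted p = 0.0060, or 0.092 without the block). Its pseudogene Bnip3l-ps held 2.77% to 3.91% as many counts. Bnip3, the paralog with a similar role, did not pass (log2 difference -0.12, adjusted p = 0.59). Vegfa, Ddit4 and Ankrd37 had log2 differences of 0.26, -0.01 and -0.51, with adjusted p of 0.28, 0.97 and 0.46. Counts of Ankrd37 are uncertain, since its exons overlap those of Ufsp2 on the other strand, which held 1790% to 5730% as many counts.

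All 3 pentose phosphate genes of the list rose with DOT1L High, against 10.0% of all genes. Pgd, which makes NADPH at the second oxidative step, was at 387 CPM (NT), 575 (Low) and 925 (High) in K3117, and at 608, 892 and 1087 in K3174, a 2.07-fold rise (log2 1.05 ± 0.14 SE, 95% interval 1.68 to 2.55, adjusted p = 0.00025). G6pdx, the gatekeeper of the pathway, was at 178, 239 and 367 CPM in K3117 and at 243, 296 and 400.4 in K3174, a 1.84-fold rise (log2 0.88 ± 0.12 SE, adjusted p = 0.0004). Tkt, the transketolase that links the pathway back to glycolysis, was at 772, 925 and 1074 CPM in K3117 and at 941, 1042 and 1220.0 in K3174, a 1.34-fold rise (log2 0.43 ± 0.12 SE, adjusted p = 0.028). Each rose in the order NT, Low, High in both leukemias, and the High libraries lay above the NT libraries without overlap.

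The call for Tkt was lost without either High library (adjusted p = 0.2 for K3117 and 0.14 for K3174), without either Low library (0.059 and 0.054), with upper quartile scaling (0.067) and without the block (0.18). Without the block, adjusted p was 0.064 for G6pdx and 0.12 for Pgd. Exons of G6pdx share 418 bases with Ikbkg on the other strand, whose counts were 16.1% to 32.2% of those of G6pdx.

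Of the other pentose phosphate genes, 9 of 10 were tested. Of these, 3 rose (33.3%) and none fell, against 10.0% and 7.32% of all genes. Rpia and Rpe, which interconvert the pentose phosphates, had log2 differences of 0.73 (adjusted p = 0.0015) and 0.47 (0.025), and Taldo1, the transaldolase, of 0.54 (0.0060). Over the 12 genes tested the median log2 difference was 0.45, with 6 higher and 0 lower. The 12 genes summed to 2328 CPM (NT), 2824 (Low) and 3613 (High) in K3117, and to 2812, 3369 and 3955 in K3174. The High sum was 1.55 times NT in K3117 and 1.41 times NT in K3174, whereas the sum of the 12 glycolytic enzymes was above NT in one and below NT in the other. Most of each pentose phosphate sum, and of its rise, came from Pgd, Tkt and G6pdx, whose values are given above. Pgls, which acts between G6pdx and Pgd, was below NT in both High libraries but did not pass (log2 difference -0.34, adjusted p = 0.098). The order NT, Low, High held in both leukemias for 6 of the 12 pentose phosphate genes and for 1 of the 12 glycolytic enzymes (Gpi1), against 12.7% of all genes tested. The falling order held for 2 of the 12 pentose phosphate genes (Pgls and Prps1) and for Pfkp, against 11.0% of all genes. Prps1 and Prps2, which make phosphoribosyl pyrophosphate from ribose phosphate, were also below both NT libraries in both High libraries and did not pass (log2 differences -0.18 and -0.23, adjusted p = 0.39 and 0.26). The late neutrophil markers had the same order of summed levels in both leukemias, and their part in this rise was not tested.

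**Figure D3:**
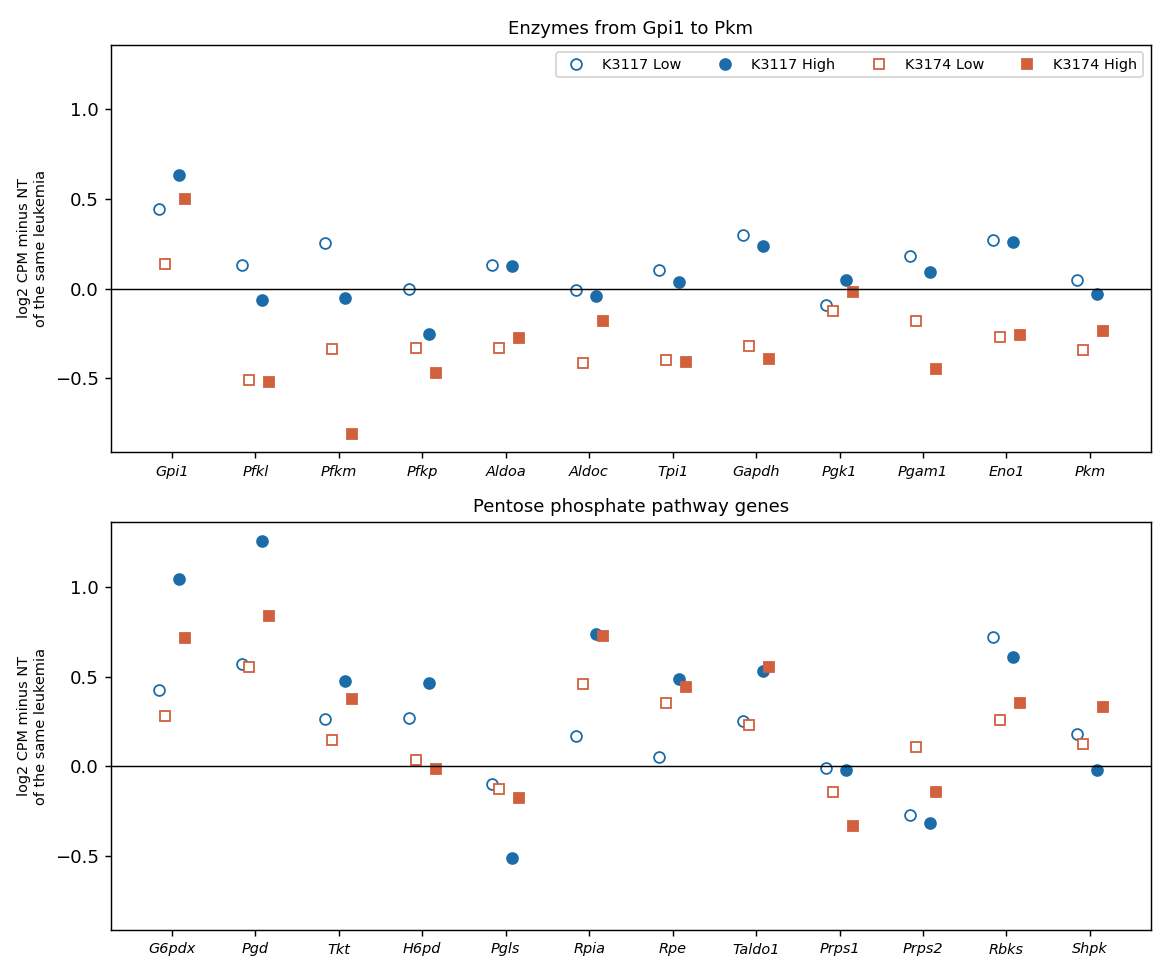
Log2 CPM of each DOT1L Low and High library minus NT of the same leukemia, for the 12 enzymes from Gpi1 to Pkm (top) and 12 pentose phosphate genes (bottom). Each point is 1 library against 1 library. In the top panel most K3117 points are near or above 0 and most K3174 points below it, with Gpi1 above 0 throughout, while G6pdx, Pgd, Tkt, Rpia, Rpe and Taldo1 are above 0 in all 4 libraries.

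With DOT1L Low, 2 of the 35 genes (5.71%) were higher than NT and 0 were lower, by edgeR's quasi-likelihood test, against 2.05% and 1.29% of all genes and 3.34% in either direction. At an unadjusted p under 0.05 the counts were 5 and 2, against 995 and 1102 of all 15812 genes. DESeq2 called the same numbers as edgeR at its adjusted threshold, 2 and 0, with 379 and 204 over all genes. Pfkfb4 was 1.91-fold higher (log2 0.93 ± 0.19 SE, adjusted p = 0.023, or 0.29 without the K3174 Low library) and Pgd 1.48-fold higher (log2 0.56 ± 0.14 SE, adjusted p = 0.047, or 0.1 and 0.62 without the Low library of K3117 and of K3174). Without the block neither passed (0.78 and 0.9). Without NT of K3117 more genes of the list were called lower, and without NT of K3174 more were called higher. Over all genes, calls in both directions also rose in each of these fits, which leave 1 NT library. Pfkfb3 and G6pdx did not pass for Low, with log2 differences of 0.42 and 0.35 (adjusted p = 0.085 and 0.19).

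The direct comparison of High with Low, which shares its libraries with the contrasts above, found 3 genes higher (8.57%) and 0 lower by edgeR, against 4.12% and 1.35% of all genes and 5.48% in either direction. Slc2a3 was 2.54-fold higher in High than in Low (adjusted p = 0.0082), Pfkfb4 2.47-fold (0.0017) and G6pdx 1.44-fold (0.027). At an unadjusted p under 0.05 there were 6 higher and 2 lower, against 1578 and 839 of all 15812 genes. DESeq2 called 5 and 1, adding Bnip3l, Pgd and, as lower, Egln3, with 651 and 227 over all genes. Bnip3l had an adjusted p of 0.050036 with edgeR, just over the threshold. Slc2a3 was lost without the Low or the High library of K3174 (0.11 and 0.1), and G6pdx without Low of K3117, High of K3117 or Low of K3174 (0.34, 0.38 and 0.19). Without the block, edgeR called 0 genes of the whole table in this contrast. Without either NT library more genes of the list were called in both directions, and so were more genes over all.

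The leukemias themselves differed in this list. Over the 3 labels, 8 of the 35 genes (22.9%) were lower in K3174 than in K3117 and 3 (8.57%) were higher, against 6.32% and 3.05% of all genes and 9.37% in either direction. The lower genes were Hk1, Pfkl, Pfkp, Aldoc, Slc16a3, Pdk1, Egln3 and Bnip3, and the higher ones Slc2a3, Pfkfb4 and Pgd. The largest of these was Aldoc, a brain-type aldolase at low level, at 34.2, 34.0 and 33.2 CPM in K3117 and 18.9, 14.2 and 16.7 in K3174 (2.05-fold lower, adjusted p = 0.00027). Egln3 was 1.61-fold lower in K3174 (adjusted p = 0.0017), Bnip3 1.49-fold lower (0.0037) and Slc16a3 1.55-fold lower (0.0094). The median log2 difference was -0.20 for the list and 0.00 for all genes.

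The lower count depended on the libraries. Without either NT library it rose, as did the calls of lower over all genes, and without either Low library both fell. Without either High library the count in the list fell, while calls of lower over all genes changed little. Aldoc, Egln3 and Bnip3 stayed lower and Slc2a3 stayed higher in every one of these fits. A difference of handling between the K numbers cannot be told apart from a difference of the leukemias. Markers of myeloid cells also differed between the K numbers. In K3174, 10 of 12 late neutrophil, 6 of 7 primary granule and 5 of 6 mast cell and basophil genes were higher, and none lower. Of 8 monocyte and macrophage genes, 5 were lower and none higher. Over all genes, 3.05% were higher and 6.32% lower. The part of cell composition in these differences was not tested.

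Differences from NT had opposite signs in the leukemias for 9 of the 35 genes (25.7%) for DOT1L High, against 34.2% of all genes, and for 18 (51.4%) for DOT1L Low, against 47.4%. For High, 7 genes (20%) were above NT in K3117 and below it in K3174, against 16.5% of all genes: Slc2a1, Aldoa, Tpi1, Gapdh, Pgk1, Pgam1 and Eno1. The reverse held for Ankrd37 and Ddit4 (5.71%, against 17.7%). For Low, 14 (40%) were above NT in K3117 and below it in K3174, 8 of them among the 12 enzymes, against 24.2% of all genes. With 1 library per leukemia and label, these sign differences were not tested. Both High libraries exceeded both NT libraries for 10 genes of the list (28.6%), namely Hk2, Hk3, Gpi1, Pfkfb3, Pfkfb4, Hif1a, Bnip3l, G6pdx, Pgd and Tkt. Both were below both for 6 (17.1%), namely Pfkl, Pfkm, Pfkp, Ldha, Slc16a1 and Egln3. Each of these patterns held for 25.3% of all genes, so the shares in the list were near or under the background.

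**Figure D4:**
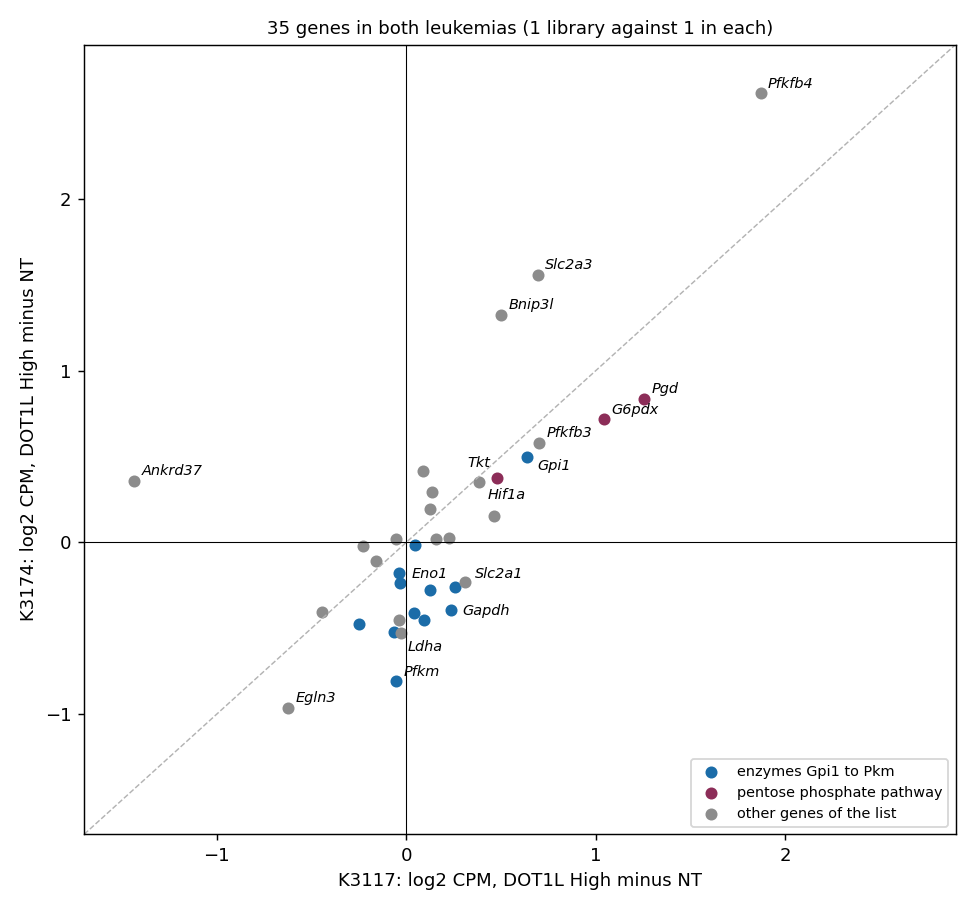
Log2 CPM of DOT1L High minus NT in K3117 (x axis) and in K3174 (y axis) for the 35 genes, with the dashed line marking equal differences. The pentose phosphate genes, Pfkfb3, Pfkfb4, Slc2a3, Bnip3l and Gpi1 are above 0 in both, Egln3 is below 0 in both, and Gapdh, Eno1 and Slc2a1 are above 0 in K3117 and below 0 in K3174.

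Levels can be compared between genes only per length, here as CPM per kilobase of merged exons. Gapdh (median over 6 libraries 588), Ldha (571) and Aldoa (512) led the list, and Ldhb (0.536), Ankrd37 (1.34) and Slc2a3 (1.90) were lowest. With the longest annotated transcript as the length, Eno1 (1203) led, followed by Ldha (1041) and Aldoa (962), Gapdh was at 738, and Slc2a3 (2.20) lay just under Ankrd37 (2.22), so the order of the most abundant genes depends on the length used. Hk3, the hexokinase known from myeloid cells, was the main hexokinase in every library, at 3.39 times Hk1 (mean ratio, range 2.82 to 3.98) and 4.58 times Hk2. Pfkl, the liver-type phosphofructokinase, exceeded Pfkp 2.49-fold and Pfkm 3.04-fold on the same scale, and Aldoa exceeded Aldoc 70.6-fold.

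Slc2a1 exceeded Slc2a3 in all 6 libraries, but the ratio ran from 25.6 down to 4.17, the lowest in High of K3174. Pfkfb3 exceeded Pfkfb4 in all 6 as well, with ratios from 5.10 down to 1.23. In both pairs the gene with the lower level in NT had the larger fitted difference with DOT1L High. For Slc16a3 over Slc16a1 the ratio was 0.684 to 1.52 and for Bnip3l over Bnip3 it was 0.871 to 2.56, each above 1 in 4 of 6 libraries, so neither order was fixed. With the longest annotated transcript the mean ratios kept their order but several values moved: Hk3 over Hk1 was 1.95, Hk1 over Hk2 was 2.54 in place of 1.38, Pfkl over Pfkm was 4.69, Aldoa over Aldoc was 113 and Ldha over Ldhb was 1814 in place of 1197. Counts of Pgam1 are uncertain because its copy Pgam1-ps2 held 11.6% to 13.5% as many, and copies of Eno1, Pgk1, Aldoa, Ldha, G6pdx and Gapdh each held under 1%.

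**Figure D5:**
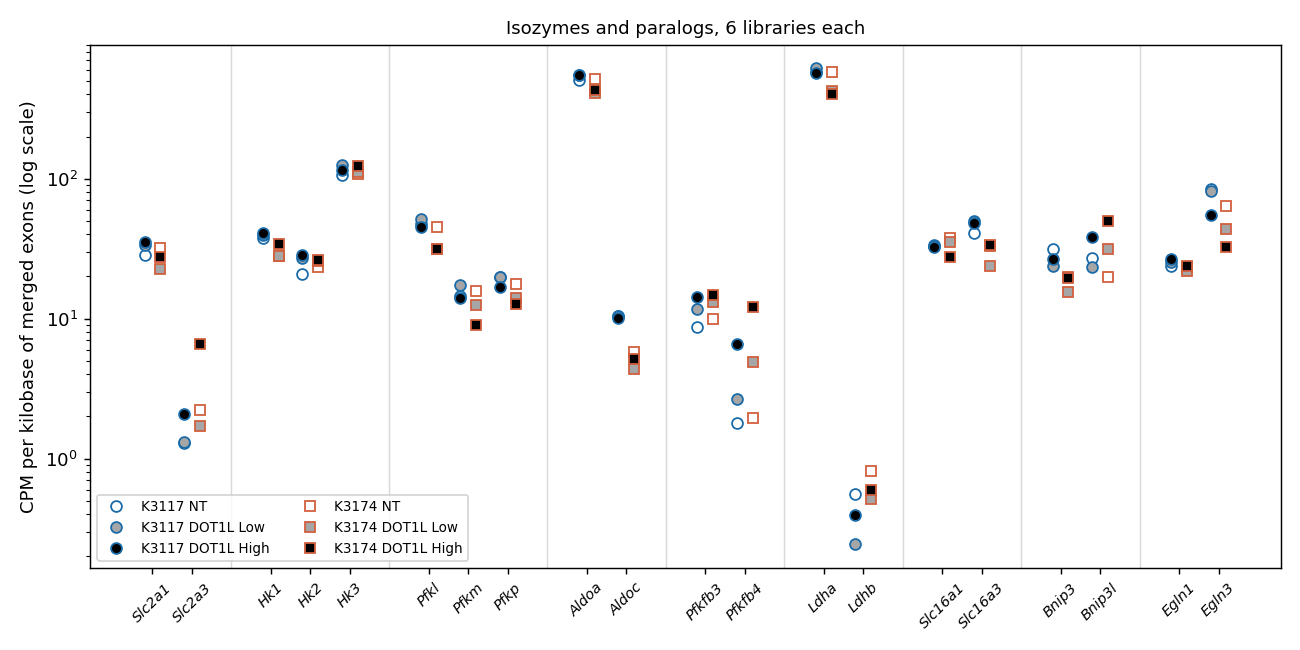
Level per kilobase of merged exons (log axis) of isozymes and paralogs of the same step, with 1 point per library, K3117 as circles and K3174 as squares, open for NT, grey for Low and black for High. Hk3 is above Hk1 and Hk2 in every library, and within each leukemia Pfkfb4 and Slc2a3 are highest in the High library.

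Further genes of these pathways were taken from 6 lists with 108 genes, of which 96 were tested. With DOT1L High, 16 (16.7%) were higher than NT and 7 (7.29%) lower, against 10.0% and 7.32% of all genes. With DOT1L Low, 2 were higher (Mxi1 and Gbe1) and 2 lower (Plod2 and P4ha2), 2.08% each, against 2.05% and 1.29%. In High against Low, 7 (7.29%) were higher and 0 lower by edgeR, against 4.12% and 1.35%. At an unadjusted p under 0.05 they were 16 and 3 of 96, against 1578 and 839 of all 15812 genes. Of 22 glycolytic isozymes and side-step genes tested, 4 rose with DOT1L High (18.2%) and 2 fell (9.09%). Adpgk, an ADP-dependent glucokinase, was at 66.1, 86.2 and 114 CPM in K3117 (NT, Low, High) and at 87.2, 130 and 236 in K3174, a log2 difference of 1.12 (adjusted p = 0.00032), and was ordered alike in both leukemias. Galm, which interconverts the anomers of sugars, rose by 1.91 (0.00051) from a low level, Pgm2 rose by 0.44 (0.032), and Slc2a6, a lysosomal transporter, fell by 0.98 (0.014). Named after their values were seen, Gpd2 had 0.42 (0.046) and Slc2a8 -0.65 (0.047).

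Of 12 genes for pyruvate entry into mitochondria, the carrier subunits Mpc2 (log2 difference 0.67, adjusted p = 0.0054) and Mpc1 (0.71, 0.046) rose and Pdk2 (-2.0, 0.035), a kinase that inhibits pyruvate dehydrogenase, fell from 1.18 CPM or less. Shares of these 12 were 16.7% higher and 8.33% lower, against 10.0% and 7.32% of all genes. Subunits of pyruvate dehydrogenase itself, named for their role after values were seen, namely Pdha1, Pdhb, Dlat and Dld, had log2 differences of -0.01, 0.01, -0.07 and 0.13 and did not pass. Of 12 regulators of glucose use, Txnip, which restrains glucose uptake, rose by 0.65 (adjusted p = 0.020), and Myc had a log2 difference of 0.28 (0.17). The share of regulators called higher was 8.33%, against 10.0% of all genes, and none was called lower, against 7.32%. Calls were lost when 1 library was left out for Mpc1 (5 of the 6 libraries, adjusted p up to 0.26), Pgm2 (either Low or High library, up to 0.26), Pdk2 (K3117 NT 0.081 or High 0.24), Mpc2 (K3174 High, 0.052), Slc2a6 (K3174 NT, 0.062), Txnip (K3174 NT 0.1 or High 0.3), Rpe (K3117 High 0.31 or K3174 High 0.052) and Taldo1 (K3174 High, 0.061). With DESeq2, Mpc1 (0.1), Pdk2 (0.11) and Slc2a6 (0.14) did not pass. With upper quartile scaling Mpc1 (0.075), Pgm2 (0.08) and Rpe (0.062) did not, and with total counts alone Mpc1 (0.065) and Pgm2 (0.057) did not. Without the block, Cited2, Gys1 and Taldo1 passed among the pathway genes that the naming rule gave, and the others had adjusted p between 0.064 (Gbe1) and 0.49 (Slc2a6), with 0.15 for Adpgk, 0.13 for Rpia, 0.11 for Epas1 and 0.26 for Plod2.

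Of 13 HIF pathway factors tested, Cited2, which competes with HIF1A for its coactivators, rose from 88.0 to 153 CPM in K3117 and from 92.1 to 188 in K3174 (log2 difference 0.92, adjusted p = 0.00025, passed under every alternative). Epas1, the paralog of Hif1a, fell from 2.38 to 0.400 CPM in K3117 and from 0.832 to 0.236 in K3174 (-2.26, 0.0073, or 0.09 without NT of K3117). Also named after values were seen, Arnt, Vhl, Egln2 and Hif1an had log2 differences of 0.04, 0.27, -0.10 and -0.16 and did not pass. Among the 13 factors, 1 was called higher and 1 lower (7.69% each), against 10.0% and 7.32% of all genes.

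Of 28 other genes known as HIF targets, 5 rose (17.9%, against 10.0% of all genes) and 3 fell (10.7%, against 7.32%), and the median log2 difference was -0.03. Those that rose include Gbe1 (log2 difference 1.18, adjusted p = 0.00022) and Gys1 (0.84, 0.00037), enzymes of glycogen synthesis, and Mxi1 (0.97, 0.00014), a MAX-binding antagonist of MYC. Plod2, a collagen lysyl hydroxylase, fell from 9.50 to 1.33 CPM in K3117 and from 2.28 to 0.236 in K3174 (-3.0, 0.00011). Named after their values were seen, Hmox1 (0.64) and Bhlhe40 (0.50) rose, and P4ha2 (-2.64) and Mif (-0.62) fell. Car9, Ndrg1, Kdm3a and P4ha1, often used as signs of hypoxia and likewise named afterwards, had log2 differences of -0.27, 0.20, -0.14 and -0.03 and did not pass.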

How the data were processed

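RNA-seq gene counts of 6 libraries were used as the authors deposited them: whole-number counts per Ensembl gene ID. Per the submitters' processing notes, STAR, STAR-Fusion, kallisto, DESeq2 and mm10 were used. The counting tool, its annotation and whether it used strand are not stated there (not given in the sources used here). IDs were named from GENCODE vM21 (99.48% matched). Genes kept by filterByExpr were fitted in edgeR 4.0.16 (R 4.3.3) with TMM factors (0.973 to 1.04), a quasi-likelihood test on label and leukemia over all 6 libraries, and Benjamini-Hochberg adjustment over the 15812 genes tested. Every adjusted p is from this fit unless another tool, scaling, filter, a fit without the block or a left-out library is named. A prior count of 2 enters the log2 CPM behind differences inside 1 leukemia. The fit left 2 residual degrees of freedom, helped by 9.38 prior ones, and the biological coefficient of variation was 12%. The K numbers in the titles were read as the source leukemia and fitted as a block. As a check, same-numbered libraries deviated together (correlations 0.57, 0.438 and 0.64), with only 2 numbers. DESeq2 1.42.0, other scalings, filters, a fit without the block and leaving out each library were alternatives. Levels between genes are CPM per kilobase of merged exons.

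Members and lists were chosen with earlier results of these data known. Members past the threshold in a label contrast are given in every library, and of each pathway list the up to 4 genes with the smallest p among those past the threshold in High against NT are named. Others are said to be named afterwards.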

Additional observations from a re-analysis of the deposited data

Results flagged for a closer look

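For 14 results, High or Low lay above NT in one leukemia and below NT in the other, with a gap of at least 0.5 on the log2 scale. Each value compares 1 library with 1 library, and none of these differences was tested. Gaps below are the log2 difference in K3117 minus that in K3174. For DOT1L High against NT, the gap was 0.54 for the transporter Slc2a1 (0.31 and -0.23), 0.63 for Gapdh (0.24 and -0.39), 0.54 for Pgam1 (0.09 and -0.45) and 0.52 for Eno1 (0.26 and -0.26). For Ankrd37 it was -1.80 (-1.44 and 0.36), from 120 counts in NT and 29 in High of K3117 and 41 and 69 in K3174. Exons of Ankrd37 share 57 bases with Ufsp2 and 349 with Lrp2bp, both on the other strand. Their counts were 1790% to 5730% and 18.3% to 42% of those of Ankrd37. Without known use of strand, these genes cannot be told apart there.

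For DOT1L Low against NT, the gap was 0.73 for Slc2a1, 0.64 for Pfkl, 0.59 for Pfkm, 0.50 for Tpi1, 0.62 for Gapdh, 0.54 for Eno1, 0.54 for Ldha and 0.74 for the lactate exporter Slc16a3, each above NT in K3117 and below it in K3174. The mitophagy receptor Bnip3l went the other way with -0.87 (-0.22 in K3117 and 0.65 in K3174). The NT libraries are shared by the Low and High values.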

How the results depend on the processing

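For single genes past the threshold, 441 alternative results kept direction and call, 90 lost the call and 0 reversed. Counts over all genes and over the list moved more, and the cause was not tested beyond fewer genes or samples entering a fit. Without the replicate block, members higher in High against NT numbered 2 in place of 8 and lower 0 in place of 1, with 493 genes in all in place of 2741. Also without the block, Low against NT and High against Low had 0 higher members in place of 2 and 3, and 0 genes in place of 528 and 866. Lower members in High against NT were 2 with total counts alone, 3 with upper quartile factors, 3 with no filter beyond 1 count and 2 with a mean CPM of at least 5. In High against Low, no filter beyond 1 count gave 5 higher members and DESeq2 also 5, and 1 lower member was called with total counts alone, upper quartile factors, no filter and DESeq2. With no filter, all genes called were 1071 in Low against NT and 1425 in High against Low, and with a mean CPM of at least 5 they were 343 and 522, and 849 in place of 1481 between the leukemias.

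Leaving out each library in turn leaves 1 library in its group, assumed to vary like the others. Ranges for High against NT were 6 to 9 higher members, 1 to 9 lower members and 1927 to 4394 genes. For Low against NT they were 0 to 5, 0 to 5 and 144 to 1483, and for High against Low 2 to 6, 0 to 2 and 335 to 1982. Between the leukemias they were 1 to 4, 3 to 18 and 829 to 2642.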
